A study of Homo sapiens with 8 samples.

Results

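The response of wild-type (WT) KBM7 cells to TNF-alpha was measured over 25726 probe sets, chosen from the 49395 on the array as those with a listed gene and a highest log2 intensity of at least 6 over the 8 arrays of the series. Of these, 24760 matched 1 gene and 966 matched several. Each value below is the log2 difference between the WT array with TNF-alpha and the unstimulated WT array that the labels name as its control, replicate 2. The other unstimulated WT array, replicate 1, was the control of a separate IFN-gamma experiment and serves here as a second control. KBM7 is a chronic myeloid leukaemia line with a near-haploid karyotype, in which 1 gene-trap insertion can disable a gene. WT cells and a TNFRSF1A mutant, which the labels describe as lacking TNFR1, the main receptor for TNF-alpha, were kept unstimulated or stimulated for 6 hours with 10 ng/ml of TNF-alpha. WT cells and a JAK2 mutant were kept unstimulated or stimulated for 6 hours with 100 ng/ml of IFN-gamma, and of these arrays only WT with IFN-gamma is used below, minus replicate 1. All cells were in logarithmic growth, and how many clones stood for each mutant is not given in the sources used here. Every condition had 1 array except unstimulated WT, which had 2. The stimulated conditions have no replicate, so differences are given here without a p-value (a limma fit that borrows its spread from the WT pair stands among the alternatives), and "raised" or "lowered" means past a stated fold between 2 arrays.

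TNF-alpha binds TNFR1 and, through adaptor and ubiquitin-ligase complexes, activates the IKK kinases and the transcription factor NF-kappaB. NF-kappaB is held in the cytoplasm by IkB proteins, whose genes are among its own targets, so the pathway feeds back on itself. Its other targets include chemokines, adhesion molecules, survival factors and the ubiquitin-editing enzyme A20.

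The arrays were alike in scale, with median intensities from 63.9 to 66.9. The ratio of 3' to 5' signal of ACTB, an index of RNA integrity, was 3.27 in WT replicate 2, the lowest of the 8 arrays, 4.81 in WT with TNF-alpha and 4.41 in WT replicate 1. Its part in the differences below was not tested. Of the 7 markers listed for the myeloid line, PTPRC, ANPEP, CEBPA, KIT and MPO passed the level of 6 and SPI1 did not. CD33 was not analysed here. Markers of other blood and stromal cells were mostly dim: 6 of 7 for T cells, 4 of 7 for monocytes and macrophages and 7 of 7 for fibroblasts lay under 6 on all 8 arrays. The 7 natural killer cell markers all passed 6 on some array, the brightest being NKG7 at 8.31 to 8.36 on the 3 WT arrays without IFN-gamma. Others above that range were CD3D, at 9.33 to 10.03, and PAX5, at 9.31 to 9.54, on the same arrays. None of the marker genes of other cell types that were compared was raised or lowered 1.5-fold against replicate 2. Against replicate 1, CD3D stood 0.70 higher.

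Against replicate 2 the response was graded, with more probe sets raised than lowered. Of the 25726 probe sets, 15 were raised at least 4-fold, 73 at least 2-fold (0.284%), 259 at least 1.5-fold (1.01%) and 1056 at least 1.25-fold. On the lowered side 1 probe set passed 2-fold (0.00389%), 40 passed 1.5-fold (0.155%) and 629 passed 1.25-fold. Against replicate 1 the counts raised and lowered were 409 and 180 at 2-fold, 1555 and 1340 at 1.5-fold and 3914 and 4440 at 1.25-fold. Above both controls by any amount stood 6552 probe sets and below both 7633. Raised probe sets thus outnumbered lowered ones at every fold against replicate 2. Against replicate 1 they did so less markedly at 2-fold and 1.5-fold, and not at 1.25-fold. In the TNFRSF1A mutant, whose arrays do not enter the WT comparison, TNF-alpha raised 0 and lowered 0 probe sets 2-fold, and the counts were 10 and 15 at 1.5-fold and 362 and 473 at 1.25-fold. The SD over probe sets was 0.20 for the WT response and 0.13 for the mutant response, both smaller than the SD of 0.40 between the WT controls. Replicate 2 stood at least 2-fold above replicate 1 for 366 probe sets and below it for 261. These are bulk measurements, in which a change in some of the cells and a smaller change in all of them cannot be told apart. Just inside the level filter, 1571 probe sets with a highest log2 value from 6 to 6.25 had differences from -0.76 to 1.07 with a median of -0.00, and 16 were raised and 8 lowered 1.5-fold. Just outside it, 1623 with a highest value from 5.75 to 6 had differences from -0.73 to 1.12 with a median of 0.01.

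**Figure D1:**
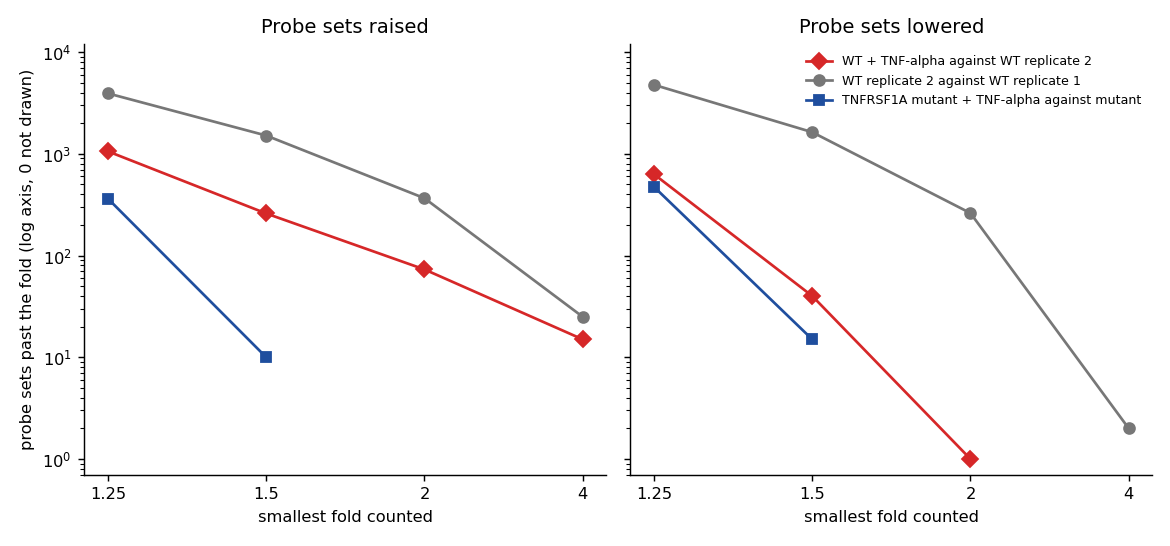
Number of probe sets past each fold (log axis, counts of 0 not drawn), raised on the left and lowered on the right, for WT with TNF-alpha against WT replicate 2, for WT replicate 2 against WT replicate 1, and for the TNFRSF1A mutant with TNF-alpha against the unstimulated mutant. The WT response counts 73 raised and 1 lowered at 2-fold, the mutant 0 and 0, and the WT controls differ by 366 and 261.

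The second control sorted the graded response. Of the 73 probe sets raised 2-fold against replicate 2, 65 also stood at least 1.5-fold above replicate 1 and 4 stood at or below it. Of the 186 between 1.5-fold and 2-fold, 96 stood at least 1.5-fold above replicate 1 and 28 at or below it. Of the 40 lowered 1.5-fold, 11 stood at least 1.5-fold below replicate 1 as well, and 18 at or above it. In all, 161 probe sets (0.626%) were at least 1.5-fold above both controls and 11 (0.0428%) at least 1.5-fold below both. The median difference from replicate 2 and from replicate 1 was 2.49 and 2.55 for the probe sets raised 4-fold, 1.35 and 1.37 for those raised 2-fold to 4-fold, 0.70 and 0.60 between 1.5-fold and 2-fold, and 0.39 and 0.18 between 1.25-fold and 1.5-fold. For the 40 lowered 1.5-fold it was -0.68 and -0.15. The bands were chosen on the difference from replicate 2, so a smaller difference from the other control is partly built in. The median of replicate 2 minus replicate 1 was -0.23 for the probe sets raised 1.25-fold to 1.5-fold and 0.60 for the 40 lowered. Both differences also use the same stimulated array.

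**Figure D2:**
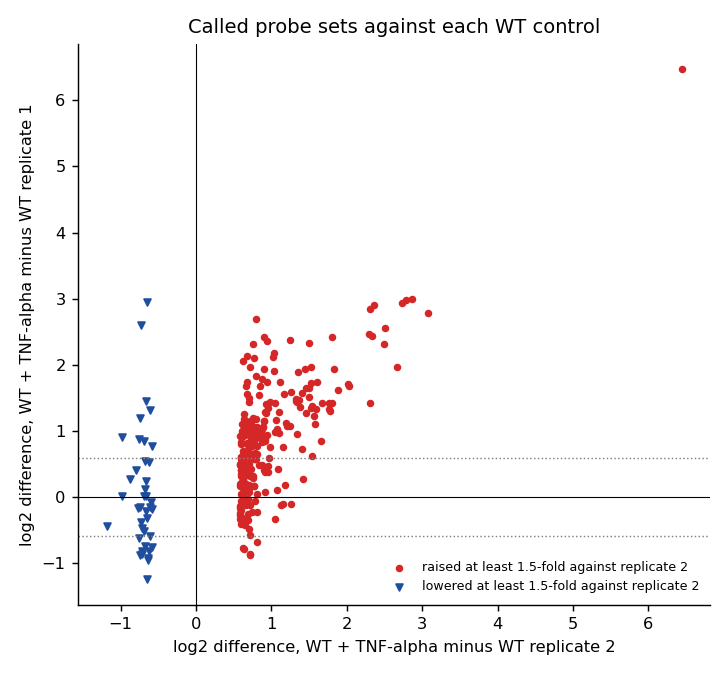
Log2 difference of WT with TNF-alpha from WT replicate 1 (vertical) against that from WT replicate 2 (horizontal) for the 259 probe sets raised and the 40 lowered at least 1.5-fold against replicate 2; the stimulated array is shared. Dotted lines mark 1.5-fold against replicate 1, which 161 of the raised and 11 of the lowered probe sets passed.

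Probe sets were then joined into genes, each represented by its brightest single-gene probe set, which left 11529 genes. Of these, 36 were raised 2-fold (0.312%), 126 were raised 1.5-fold (1.09%) and 9 were lowered 1.5-fold (0.0781%). At least 1.5-fold above both controls stood 81 genes (0.703%), and 5 stood that far below both (0.0434%). Of the 36 genes raised 2-fold, 33 stood at least 1.5-fold and 29 at least 2-fold above replicate 1. Where a value lay under the level of 6, that level was put in its place to give a lower bound. By this bound 34 of the 36 genes were still raised 2-fold and 115 of the 126 were raised 1.5-fold. CXCL11, 1 of the 36, had both values under 6 and so no bound. It is counted by its raw difference here and below.

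The marker genes of the response were NFKBIA, which encodes the inhibitor IkB-alpha, TNFAIP3, which encodes A20, the chemokine gene CXCL10 and the adhesion molecule gene ICAM1. Their promoters are shown because NF-kappaB acts on target genes through kB sites. Each is the 250 bases before the annotated start, 5' to 3' on the gene's strand, from RefSeq on GRCh38.p14. Capitals mark matches on either strand to the kB consensus, a 10-letter pattern, or to the interferon-response core GAAANNGAA. The regions are chr14:35404750-35404999 on the minus strand for NFKBIA, chr6:137867009-137867258 on the plus strand for TNFAIP3, chr4:76023498-76023747 on the minus strand for CXCL10 and chr19:10270870-10271119 on the plus strand for ICAM1.
NFKBIA: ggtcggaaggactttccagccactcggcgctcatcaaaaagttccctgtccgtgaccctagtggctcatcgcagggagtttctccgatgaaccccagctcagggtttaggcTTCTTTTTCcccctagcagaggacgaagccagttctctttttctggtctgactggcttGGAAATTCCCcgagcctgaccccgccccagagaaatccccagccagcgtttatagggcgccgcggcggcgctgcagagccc
TNFAIP3: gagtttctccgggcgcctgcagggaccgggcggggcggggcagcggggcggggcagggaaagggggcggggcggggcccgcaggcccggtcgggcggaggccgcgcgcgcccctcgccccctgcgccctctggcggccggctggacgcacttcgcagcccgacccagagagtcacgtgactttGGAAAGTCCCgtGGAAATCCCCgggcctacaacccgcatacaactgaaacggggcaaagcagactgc
CXCL10: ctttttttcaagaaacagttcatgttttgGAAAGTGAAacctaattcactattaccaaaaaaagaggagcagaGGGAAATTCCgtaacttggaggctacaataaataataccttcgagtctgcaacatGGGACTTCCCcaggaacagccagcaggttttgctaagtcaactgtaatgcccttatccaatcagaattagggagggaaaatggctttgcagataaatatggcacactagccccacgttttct
ICAM1: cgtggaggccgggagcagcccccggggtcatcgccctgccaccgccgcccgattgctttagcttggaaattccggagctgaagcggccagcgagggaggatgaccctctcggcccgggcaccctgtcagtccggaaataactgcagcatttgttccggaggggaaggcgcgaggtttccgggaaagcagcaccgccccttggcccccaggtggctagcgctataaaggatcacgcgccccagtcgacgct
Counted back from the start, where base -1 is the last printed, the kB consensus matched at -81 to -72 in NFKBIA, at -67 to -58 and -55 to -46 in TNFAIP3, and at -177 to -168 and -122 to -113 in CXCL10. The interferon-response core matched at -139 to -131 in NFKBIA and at -221 to -213 in CXCL10, and no match overlapped another. The ICAM1 window held neither pattern, which says only that these letters are not in it.

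Over the genes with a promoter in the RefSeq table, the kB consensus was present in 12 of 30 genes raised 2-fold (40%), 10 of 70 raised 1.5-fold to 2-fold (14.3%), 31 of 279 raised 1.25-fold to 1.5-fold (11.1%) and 511 of 8964 within 1.25-fold (5.70%). It was present in 6 of the 121 genes lowered 1.25-fold or more (4.96%) and in 1828 of all 35116 promoters of that length (5.21%). The 12 genes were CXCL10, NFKBIA, CXCL3, TNFAIP3, CXCL2, LTB, NFKB1, CXCL11, NFE2L3, NFKBIZ, TASL and MAP3K8. The interferon-response core was present in 7 of the 30 genes raised 2-fold (23.3%), in 6 of the 70 between 1.5-fold and 2-fold (8.57%) and in 2416 of all promoters (6.88%). These shares describe the windows searched, and no test was made.

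CXCL10 had the largest rise. Its log2 level was 5.51 in WT replicate 1, 5.53 in WT replicate 2, 11.98 in WT with TNF-alpha, 4.74 in the TNFRSF1A mutant and 5.23 in the mutant with TNF-alpha. The 4 arrays other than stimulated WT all lay under the level of 6. The difference from replicate 2 was 6.44, and at least 5.98 with the control set to that level. NFKBIA had levels of 9.05 and 9.25 in the WT controls, 12.04 with TNF-alpha, and 9.36 and 9.56 in the mutant without and with TNF-alpha. It was raised by 2.78 against replicate 2 and by 2.99 against replicate 1, and all 3 of its probe sets were raised, by 2.74 to 2.86. TNFAIP3 had levels of 9.06 and 9.60 in the controls, 11.96 with TNF-alpha, and 10.02 and 10.13 in the mutant, a rise of 2.36 in WT. ICAM1 had levels of 7.15 and 6.98 in the controls, 9.47 with TNF-alpha, and 7.25 and 7.29 in the mutant, a rise of 2.49 in WT. For each of the 4 genes the stimulated WT array stood above every other array of the TNF-alpha experiment and above replicate 1.

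The genes of NF-kappaB itself and of its inhibitors had the highest median of the lists described. Of 11 genes compared, 6 were raised 2-fold and 8 were raised 1.5-fold, with a median of 1.05, where the median over all genes was 0.01. NFKB1, which encodes the p105 precursor of p50, had levels of 9.66 and 9.28 in the WT controls and 11.08 with TNF-alpha, a rise of 1.80. RELB and NFKB2, subunits of the non-canonical pathway, were raised by 1.36 and 1.05. NFKBIE, another IkB gene, was raised by 1.41 against replicate 2 and by 0.73 against replicate 1, since replicate 1 was higher at 9.27 than replicate 2 at 8.59. NFKBIZ, a nuclear IkB, moved the other way between controls, at 7.65 and 8.78, and was raised by 1.25 and 2.38. BCL3 and NFKBID, further nuclear IkB genes, were raised by 0.99 and 0.77. REL was 0.57 higher, NFKBIB 0.33 and RELA, the main activating subunit, 0.28, all short of 1.5-fold. All 11 genes were above replicate 2.

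In the ubiquitin-editing and TRAF feedback list, 1 of 13 genes passed 2-fold and 4 passed 1.5-fold, with a median of 0.39. Beside TNFAIP3 these were TRAF3 (0.88), TRAF1 (0.63) and CYLD (0.59), which encode regulators of NF-kappaB signalling. TNIP1, a partner of A20, was 0.55 higher. The upstream list of the TNF receptor complex and the IKK kinases had 0 of 17 genes past 1.5-fold in either direction and a median of -0.04. Its largest difference was that of CFLAR, a caspase-8 inhibitor, at 0.39, and TNFRSF1A itself stood at -0.12. RIPK1 and TRAF2 were listed but not compared. Over all genes compared, 1.09% were raised 1.5-fold. A list of 17 would hold few or none at that share, so its count of 0 does not set it apart.

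Of 11 chemokine genes compared, 4 were raised 2-fold and 7 were raised 1.5-fold, with a median of 0.87. CXCL2 and CXCL3, which attract neutrophils, were raised by 2.34 and 2.51. CXCL2 stood at 6.27 and 6.38 in the controls and 8.71 with TNF-alpha. CXCL3 stood at 5.01 and 5.06 in the controls and 7.57 with TNF-alpha, so that its rise was at least 1.57. CXCL11, also counted as raised 2-fold, went from 4.10 in replicate 2 to 5.76, with both values under the level of 6. It passed that level only in WT with IFN-gamma, at 8.26, and no fold is given for its rise with TNF-alpha. CXCL8, the gene of interleukin-8, was already high in the controls, at 11.72 and 11.69, and reached 12.56, a rise of 0.87, and all 3 of its probe sets were raised at least 1.5-fold, 2 of them 2-fold. CCL5 was raised by 0.96, from 9.14 to 10.10, while the unstimulated TNFRSF1A mutant stood at 9.94. CCL3 was raised by 0.72 against replicate 2 and stood 0.32 above replicate 1. Its level was 7.73 in replicate 2 and 8.45 with TNF-alpha, below the TNFRSF1A mutant at 8.62 without and 8.86 with TNF-alpha.

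Among the 966 probe sets with several genes, the 4 largest rises came from 3 probe sets shared by CCL4 and its copies CCL4L1 and CCL4L2 and 1 shared by the copies alone. They were raised by 1.42, 1.18, 1.15 and 1.13 against replicate 2, the third being that of the copies, but stood at 0.27, 0.18, -0.10 and -0.12 against replicate 1. For the first of them the levels were 8.98 in replicate 1, 7.83 in replicate 2, 9.25 with TNF-alpha, 9.16 in the TNFRSF1A mutant and 9.35 in the mutant with TNF-alpha. Replicate 2 was the low array of the 5, and the other 4 lay from 8.98 to 9.35. These probe sets cannot be assigned to 1 of the copies.

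Of 11 cytokine genes compared, 2 were raised 2-fold and 5 were raised 1.5-fold. LTB, which encodes lymphotoxin-beta, was raised by 1.88, from 11.68 to 13.56. IL1B was raised by 1.78, from 5.64 to 7.41, and by at least 1.41 with the control at the level of 6. EBI3 (0.86, at least 0.25) and IL32 (0.80) followed. TNF and IL6 stayed under the level of 6 on all arrays and were not compared. In the adhesion and costimulation list, 4 of 14 genes were raised, all of them 2-fold. They were ICAM1, CD83 (2.31), the TNF receptor family member TNFRSF4 (1.46) and CD40 (1.35). CD83, a surface marker of activated antigen-presenting cells, was the most dependent of them on its control, with levels of 9.42 and 8.54 in replicates 1 and 2 and 10.85 with TNF-alpha, which left 1.43 against replicate 1.

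Of 13 survival genes, 3 were raised 1.5-fold. IER3, an immediate early gene that modulates apoptosis, had levels of 8.50 and 7.81 in the WT controls, 10.48 with TNF-alpha, and 7.80 and 7.97 in the mutant, a rise of 2.67 against replicate 2 and 1.97 against replicate 1. BCL2A1, an anti-apoptotic BCL2 relative, was raised by 1.81 from 6.58 to 8.39, and GADD45B by 0.75. Of 13 genes of death ligands, receptors and caspases, 1 was raised, TNFSF10, which encodes TRAIL, by 1.49. FAS was 0.46 higher than replicate 2, which at 10.66 was itself 1.05 above replicate 1. Among other NF-kappaB targets, 6 of 13 were raised 1.5-fold, led by TNFAIP2 (1.59) and STX11 (1.32), followed by the autophagy receptor gene SQSTM1 (0.80) and the interleukin-2 receptor gene IL2RA (0.79). For IL2RA the controls differed by 1.90, so that it stood 2.69 above replicate 1.

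Of 21 immediate early genes, 4 were raised 1.5-fold: IER5 (1.08), the AP-1 subunit JUNB (0.78), NR4A3 (0.64) and EGR3 (0.59). NR4A3 and EGR3 stood below replicate 1, by 0.78 and 0.23. FOS, MYC and JUN were at -0.00, -0.10 and 0.19 at this time of 6 hours. In the list of MAP kinase regulators the phosphatase gene DUSP2 (1.21) and the kinase gene MAP3K8 (1.05) were raised and DUSP6 was lowered. The other lists had few called members. The pattern-recognition list had 2 of 13 raised, IRAK2 (0.71) and TLR2 (0.59). The ATF4 list had 1 of 20, ATF5 (0.76), glycolysis 1 of 18, PFKFB3 (0.81), and the arrestins 1 of 5, ARRDC2 (0.72). Against replicate 1, PFKFB3 and ARRDC2 stood 0.78 and 0.87 higher, but ATF5 only 0.16. ATF5 was at 7.52 in stimulated WT and at 7.54 in the unstimulated TNFRSF1A mutant. MHC class I and peptide loading had 0 of 20, MHC class II 0 of 9, cell cycle 0 of 28, ribosome biogenesis 0 of 16, cholesterol 0 of 14 and myeloid granule genes 0 of 14 in either direction. Over all genes compared, 1.09% were raised and 0.0781% lowered 1.5-fold. Lists of these sizes would hold few or none at those shares, so the counts of 0 do not set them apart. Housekeeping genes had 0 of 8 and a median of -0.01.

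**Figure D3:**
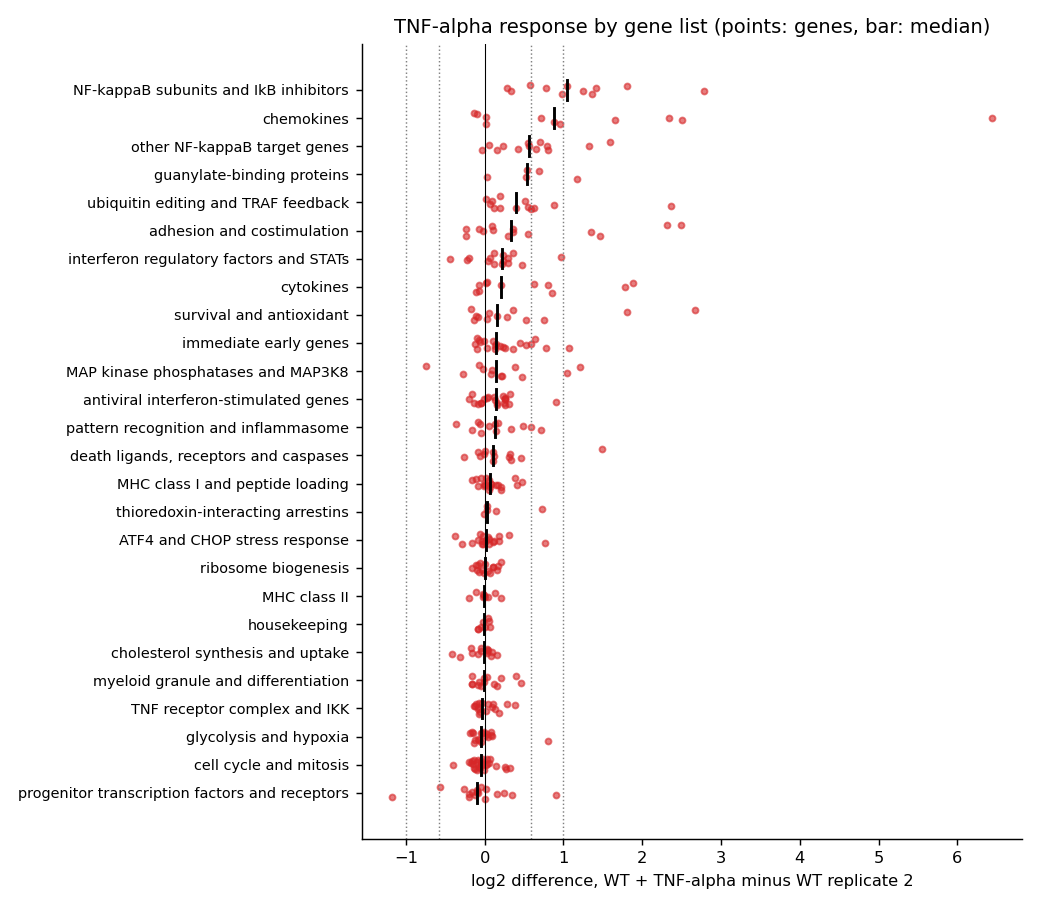
Log2 difference of WT with TNF-alpha from WT replicate 2 for every compared gene of 26 lists (points) with the list's median (bar); dotted lines mark 1.5-fold and 2-fold. The NF-kappaB and IkB list has a median of 1.05 and chemokines of 0.87, while the receptor complex, cell cycle and housekeeping lists lie around 0.

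Interferon-inducible genes differed by list. The guanylate-binding proteins, GTPases of cell-autonomous immunity, had 2 of 5 raised, GBP5 (1.17) and GBP4 (0.69), all 5 above 0 and a median of 0.54, where IFN-gamma gave the same list a median of 3.27. The antiviral list had 1 of 22 raised, the RNA sensor gene IFIH1 (0.90), with a median of 0.15 against replicate 2 and -0.13 against replicate 1. The interferon regulatory factor and STAT list had 1 of 15 raised, IRF4 (0.96, at least 0.63), and IRF1 was 0.47 higher. Of the 36 genes raised 2-fold by TNF-alpha, 11 were raised at least 1.5-fold by IFN-gamma, among them CXCL10 (at least 5.27), GBP5 (3.43), TNFSF10 (2.22), BCL2A1 (at least 1.40), MAP3K8 (1.04) and ICAM1 (1.01). Of the 90 genes raised 1.5-fold to 2-fold it was 8, and of all genes compared 159 (1.38%). The IFN-gamma comparison shares no array with the TNF-alpha comparison. The NF-kappaB genes NFKBIA (0.05) and NFKB1 (0.01), and IER3 (-0.01), LTB (-0.01) and CXCL3 (0.12), did not pass 1.5-fold with IFN-gamma.

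The remaining genes raised 2-fold were RGS16 (1.66), PRDM8 (1.499), PPIF (1.46), FRMD4B (1.38), NFE2L3 (1.33), SLC2A6 (1.26), PDGFA (1.25), KCNN1 (1.09, at least 0.96), TASL (1.09) and MREG (1.04), named after their values were seen. RGS16 encodes a regulator of G-protein signalling, PPIF the mitochondrial cyclophilin D and PDGFA a platelet-derived growth factor chain. SLC2A6 and MREG were the only ones of the 36 that stood below replicate 1, by 0.11 and 0.33. In SLC2A6 the levels were 7.53 in replicate 1, 6.17 in replicate 2 and 7.42 with TNF-alpha.

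Between 1.5-fold and 2-fold lay 90 genes, of which 48 also stood 1.5-fold above replicate 1, 21 stood 2-fold above it and 14 at or below it. The 12 largest of the 48 were BCL3, IRF4, CCL5, SLAMF1, IL1RL1, CD70, PTGER4, HILPDA, IFIH1, GATA2, NINJ1 and CXCL8. GATA2, a transcription factor of blood progenitors, had levels of 11.30 and 12.34 in the WT controls, 13.24 with TNF-alpha, and 12.05 and 11.99 in the mutant. It was raised by 0.90, and all 5 of its probe sets were raised at least 1.5-fold against replicate 2, by 0.66 to 1.03. Of these, 4 stood 1.5-fold above both controls, and the other stood 0.35 above replicate 1. HILPDA, which encodes a lipid-droplet protein, had levels of 10.57 and 12.09 in the controls and 13.00 with TNF-alpha, 0.90 above one and 2.42 above the other. NINJ1, an adhesion protein gene, had levels of 7.59 and 7.59 in the controls, 8.47 with TNF-alpha, and 7.62 and 7.57 in the mutant. IL1RL1, the interleukin-33 receptor gene, was likewise close in both controls, at 6.37 and 6.36, and reached 7.31. CD70, a costimulatory ligand, went from 8.58 to 9.50, while the mutant stood at 6.33 and 6.64. SLAMF1 and the prostaglandin receptor gene PTGER4 were raised by 0.94 and 0.90, to 8.44 and 11.48. IRF4, a transcription factor of lymphoid and myeloid cells, reached 6.63 in stimulated WT, close to the mutant's 6.60 without TNF-alpha.

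**Figure D4:**
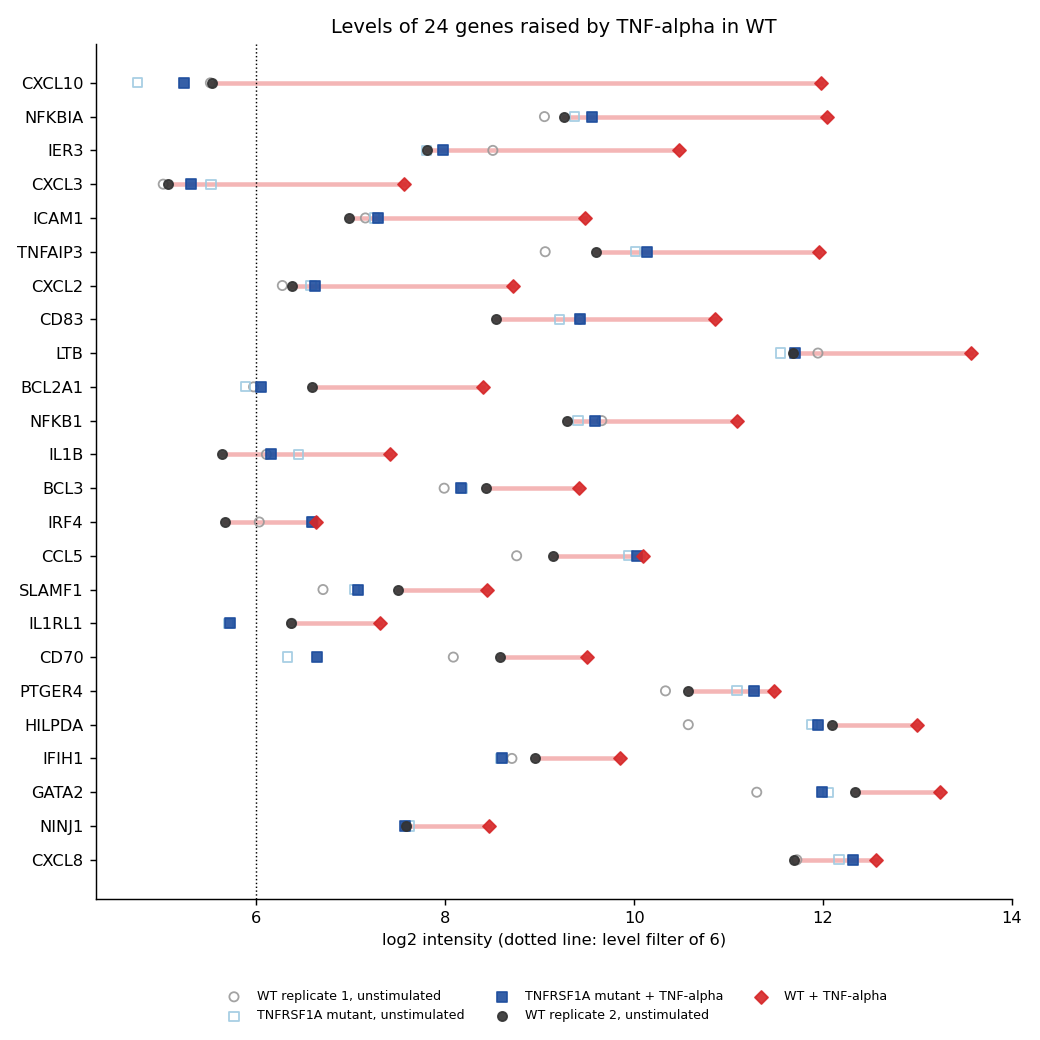
Log2 intensity of 24 raised genes on 5 arrays: WT replicates 1 and 2 unstimulated (circles), WT with TNF-alpha (diamonds) and the TNFRSF1A mutant without and with TNF-alpha (squares); the bar joins WT replicate 2 to stimulated WT. Stimulated WT is the highest of the 5 arrays for all 24 genes. They were chosen for their rise over replicate 2, and those below 2-fold also over replicate 1. Their place above those controls was thus fixed by the choice. The mutant's squares lie at most 0.49 apart, for CXCL10.

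Agreement between probe sets differed between the sides. On the raised side, 171 genes had a probe set past 1.5-fold. Of the 117 with several probe sets, all were past 1.5-fold in 32, at least as many passed as did not in 80, and all had the same sign in 98. On the lowered side there were 37 genes, and of the 30 with several probe sets 0 had all of them past 1.5-fold, and 19 had all with the same sign. RBM17, a splicing factor gene, was the only gene with a probe set past 2-fold (1.11) and a bright one within 0.2 (0.18).

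The lowered side was short. CD200, an inhibitory surface protein, was the only gene lowered 2-fold. Its levels were 6.74 and 7.48 in WT replicates 1 and 2, 6.29 with TNF-alpha, and 7.63 and 7.40 in the mutant. It fell by 1.18 against replicate 2 and stood 0.44 below replicate 1. IRS1, an adaptor of the insulin receptor, fell by 0.98 from 6.21 to 5.23, but replicate 1 was lower still at 4.32, and the mutant stood at 7.72 and 7.76. With the stimulated value set to the level of 6 the fall of IRS1 was at least 0.21. FCRLA fell by 0.75 and stood 0.15 below replicate 1, and SLC39A5, a zinc transporter gene, fell by 0.72 to a value under the level of 6, which leaves a fall of at least 0.02.

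The 5 genes lowered at least 1.5-fold against both controls were DUSP6, NFE2, FAXC, ASPG and SMAD6. DUSP6, a phosphatase of ERK that is itself induced by ERK signalling, had levels of 10.50 and 10.37 in the controls and 9.63 with TNF-alpha. It was lowered by 0.74 and 0.88, and 3 of its 4 probe sets were lowered 1.5-fold, the fourth falling short at -0.54. In the TNFRSF1A mutant it stood at 9.69 without and 9.69 with TNF-alpha, which is nearer to stimulated WT than to either control. NFE2, an erythroid and megakaryocytic transcription factor, had levels of 7.87 and 7.81 in the controls, 7.13 with TNF-alpha, and 7.84 and 7.73 in the mutant. SMAD6, an inhibitor of BMP signalling, was lowered by 0.59 from 7.71 to 7.12, although its other probe set gave -0.11. With IFN-gamma SMAD6 also stood lower, by 0.70 against replicate 1. DUSP6 (0.36), NFE2 (-0.24), FAXC (-0.15) and ASPG (-0.04) did not pass 1.5-fold with IFN-gamma. ASPG, an asparaginase gene, was lowered by 0.61 from 7.39 to 6.78, but averaged over its probe sets, dim ones included, the difference was -0.25. The same mean gave -0.33 for SMAD6, -0.71 for CD200 and -0.20 for FCRLA. FAXC, counted among the 5 by its raw difference, had both values under the level of 6, and no fold is given for it. Just short of 1.5-fold against replicate 2 lay ESAM (-0.58), PIK3CG (-0.56) and RNF166 (-0.54), which stood 0.73, 0.82 and 0.88 below replicate 1. PIK3CG encodes the catalytic subunit of phosphoinositide 3-kinase gamma.

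**Figure D5:**
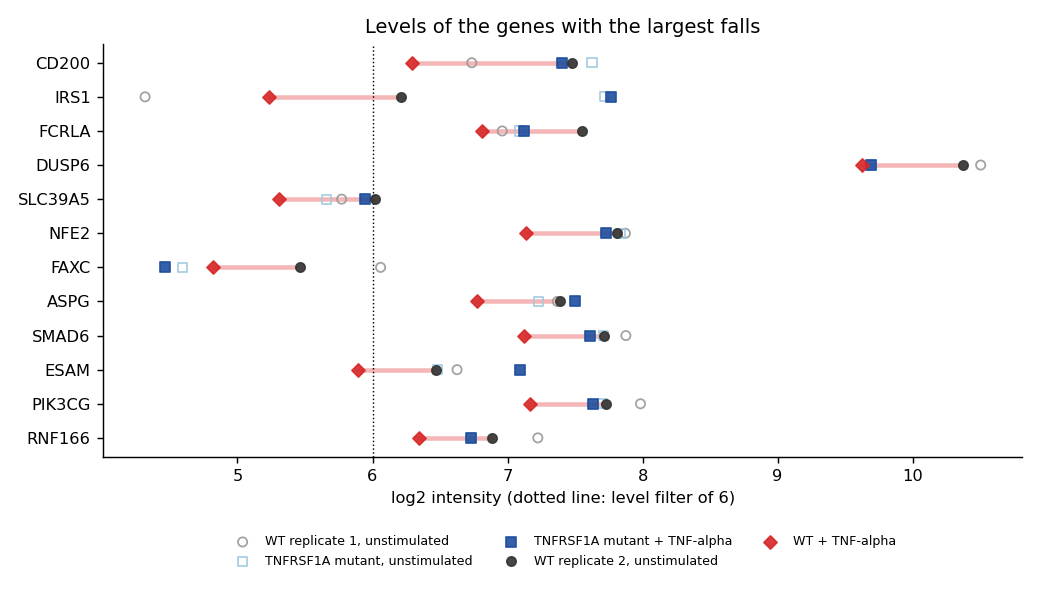
Log2 intensity on 5 arrays of 12 genes, the 10 with the largest falls against WT replicate 2 and the 8 with the largest falls against both controls, which overlap. Symbols stand for WT replicates 1 and 2 (circles), WT with TNF-alpha (diamonds) and the TNFRSF1A mutant without and with TNF-alpha (squares). Stimulated WT lies below both WT controls in all but IRS1, where replicate 1 is lower at 4.32. The 10 were chosen for lying below replicate 2 and the 8 for lying below both controls.

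Of the probe sets with several genes, 1 was lowered 1.5-fold, shared by RUNX1 and an uncharacterised locus, at -0.75 against replicate 2 and 1.20 against replicate 1. The next were shared by TRBV19 and TRBC1 (-0.55), by AS3MT and BORCS7-ASMT (-0.52) and by GMCL1 and GMCL2 (-0.51).

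In the TNFRSF1A mutant the genes raised 2-fold in WT stayed within 1.5-fold, from -0.30 to 0.49, with a median of 0.14, where the median over all genes was -0.02. The mutant difference was above 0 for 29 of these 36 genes (80.6%), for 52 of the 90 genes raised 1.5-fold to 2-fold (57.8%) and for 41.3% of all genes. The largest were CXCL10 (0.49) and MREG (0.41) among the 36 and LIF (0.54), a cytokine gene, among the 90. For CXCL10 both mutant values lay under the level of 6. By probe set, the median mutant difference was 0.17 among those raised 4-fold in WT, 0.09 from 2-fold to 4-fold, 0.02 from 1.5-fold to 2-fold and -0.02 from 1.25-fold to 1.5-fold. It was -0.06 and -0.10 among those lowered 1.25-fold to 1.5-fold and 1.5-fold or more, and -0.03 over all 25726. These medians followed the order of the WT bands, and no test of them was made. The WT difference exceeded the mutant difference by 2-fold or more in 33 genes, and the reverse held in 3 genes, IRS1, SLC39A5 and ESAM.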

How the data were processed

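RNA of KBM7 cells was hybridised to 1-colour Affymetrix PrimeView arrays, 8 in all, per the labels. The authors deposited 1 normalized intensity per probe set and array, on a linear scale. The submitters' processing notes name RMA and Affymetrix Expression Console 1.1. RMA equalises the arrays' distributions, so a shift of most genes 1 way would not be seen. That the values are linear was read from their range.

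Log2 was taken with no pseudocount. Genes came from GEO's platform annotation, updated by gene identifier to RefSeq of GRCh38.p14. Of 49395 probe sets, 44994 had 1 gene, 1832 several and 2569 none listed, and 21094 with a gene did not pass the log2 level of 6. Of the members, 67 passed through stimulated WT alone, 5 of them raised 2-fold and 11 raised 1.5-fold; control probe sets were left out. Each gene was represented by the single-gene probe set whose mean over all arrays was highest.

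The members, gene lists (26, and 10 of cell type markers), thresholds, tests and alternatives were chosen with earlier results of these data known. Named were the 4 markers, the 12 largest rises past 2-fold, the 12 largest from 1.5-fold to 2-fold that passed 1.5-fold over replicate 1, the 10 largest falls, the 8 largest falls against both controls, 4 rises and 4 falls of probe sets with several genes, up to 4 members of each list described and genes whose probe sets disagreed. Nothing in the labels says that the WT replicates were separate cultures.

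Alternatives were other level filters, loess correction (span 0.3), a further quantile normalization, other probe set rules, other controls, and a limma 3.58.1 fit of the 7 conditions with 1 residual degree of freedom, in which adjusted p is by Benjamini-Hochberg (threshold 0.05). Counts by the lower bound, and the counts against both controls with each WT replicate left out, were added later, with the data in view. The counting and the limma fit were checked on simulated data.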

Additional observations from a re-analysis of the deposited data

Results flagged for a closer look

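Among the genes named, 5 had a TNFRSF1A mutant difference opposite in sign to that of WT and larger than the SD of the mutant response over probe sets (0.13). CXCL3 (-0.21) and IL1B (-0.30) were raised in WT. SLC39A5 (0.29), ASPG (0.27) and ESAM (0.61) had falls in WT, and ESAM went from 6.48 to 7.09 in the mutant with TNF-alpha. The mutant values of CXCL3 (5.52 and 5.31) and SLC39A5 (5.66 and 5.95) lay under the level of 6, so their differences give no fold, and the other CXCL3 probe set gave 0.05 in the mutant. Each rests on 1 array per condition, and for these genes the difference between WT and mutant has no test beyond the limma interaction, in which 0 genes passed an adjusted p of 0.05.

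Probe sets with no listed gene were outside the comparisons. Of the 1150 that passed the level of 6, 3 were raised 2-fold by TNF-alpha in WT, by 3.12, 2.99 and 2.49, and all 3 stood at least 1.5-fold above both controls. For the first, the levels were 5.28 and 4.95 in WT replicates 1 and 2, 8.07 with TNF-alpha, and 5.34 in the TNFRSF1A mutant with TNF-alpha. All 3 control values in replicate 2 lay under the level of 6, and with that level in their place the rises were at least 2.07, 1.51 and 0.12. A further 3 passed 1.5-fold, and 2 were lowered 1.5-fold.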

How the results depend on the processing

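The control array mattered most. With WT replicate 1 as control the probe sets raised and lowered were 409 and 180 at 2-fold and 1555 and 1340 at 1.5-fold, in place of 73, 1, 259 and 40, and with the mean of both replicates 116, 4, 425 and 137. The counts above and below both controls, 161 and 11, run from 259 to 1555 and from 40 to 1340 when 1 WT replicate is left out, since 1 control then remains. By the brightest probe set of each gene the counts were 36 raised 2-fold, 126 raised and 9 lowered 1.5-fold, 81 above and 5 below both; by the mean of a gene's probe sets 30, 75, 4, 62 and 2, and 0 lowered 2-fold. Without a level filter 2 and 82 were lowered at 2-fold and 1.5-fold and 19 lay below both. At a level of 8, 156 were raised and 10 lowered 1.5-fold, 0 were lowered 2-fold and 4 lay below both. With the lower value set to the level of 6, 25 were lowered 1.5-fold. Loess correction, a further quantile normalization, and leaving out probe sets marked _x_at or with several genes kept all 6 counts within 1.5 times.

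The limma fit set WT with TNF-alpha against the mean of both WT arrays, not against replicate 2 alone. Its spread came from that WT pair only. In it no probe set passed each fold with an adjusted p under 0.05. By gene only CXCL10 passed, with a difference of 6.46 from that mean. The 33 genes whose WT response exceeded the mutant response by 2-fold became 197 with replicate 1 as control, and none passed in the limma interaction. Of the 36 genes named by size, IRS1 changed sign with replicate 1, to 0.92. With that control CD200 (-0.44), FCRLA (-0.15) and SLC39A5 (-0.47) no longer passed their fold. By the mean of a gene's probe sets, CD200 (-0.71), FCRLA (-0.20), ASPG (-0.25) and SMAD6 (-0.33) no longer did. By this mean 25 genes stayed on the same side of their fold. BCL2A1, BCL3, IRF4, IL1RL1, IRS1, FAXC and RNF166 were not assessed by it. Loess and quantile normalization changed none of the 36. Of 26 list medians, 4 moved by more than the SD between the WT controls with replicate 1 as control. Adhesion and costimulation went from 0.33 to 0.77 and the arrestins from 0.04 to 0.84. Pattern recognition went from 0.14 to -0.30 and ribosome biogenesis from -0.001 to -0.40. By the mean of a gene's probe sets 1 list median moved that far, cytokines, from 0.21 to 0.80. No paired analysis was possible because the stimulated and unstimulated conditions share fewer than 2 replicate numbers. The arrays' number limits the precision of all values.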
